A study of Mus musculus with 31 samples.

Results

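The genes described here are 10 inflammatory and regulatory cytokine genes of mouse Ly6C-high monocytes: Tnf, Il6, Il10, Il12b, Il23a, Osm, Lif, Csf1, Csf3 and Il15. They were chosen by symbol, and all 10 were found, each in a single row, among the 24411 entries of the deposited count table. RNA-seq libraries came from 3 groups of C57BL/6J mice, with 3 libraries in each: blood of healthy mice, blood of mice carrying a subcutaneous tumor of the Lewis lung carcinoma line (LLC, mouse lung cancer cells that can be grown in such hosts), and the LLC tumor itself. In all groups the cells were sorted as CD11b+, Ly6G-, Ly6C-high and MHC-II-, so MHC-II+ monocytes and macrophages lay outside the gate. The labels give neither age, sex nor time after implantation, name no batch, and do not say whether blood and tumor cells came from the same mice or how many mice made up a library. They state separate biological replicates for another assay of the series but not for RNA-seq, so the p-values measure the spread between these libraries, which may be technical.

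Cytokines are short-range messenger proteins. TNF, interleukin-6 (IL-6) and the IL-12 and IL-23 subunits are typical products of activated monocytes and macrophages, while IL-10 restrains their production; oncostatin M (OSM) and leukemia inhibitory factor (LIF) belong to the IL-6 family and signal through the shared gp130 chain. CSF-1 and CSF-3 (G-CSF) direct the growth and survival of macrophages and the output of neutrophils, and IL-15 sustains natural killer (NK) and memory T cells. Their messenger RNAs are short-lived, so that their levels depend on both transcription, often through AP-1, C/EBP and NF-kB factors, and decay.

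Levels are given as CPM, a gene's counts scaled to the total counts of its library, and these totals ran from 10457478 to 20706410. A level at or under 3 counts in a library, equal to 0.145 to 0.287 CPM, is called the floor, and it covers counting error only. Levels of different genes were not compared with each other, since CPM does not account for transcript length. Folds written as multiples are ratios of CPM, of group means or of summed counts, and so rest on library totals. The log2 fold changes use a different scaling between libraries (TMM), so they are not the log2 of those ratios. Log2 fold changes, their standard errors (SE) and adjusted p-values come from edgeR's quasi-likelihood test with Benjamini-Hochberg adjustment over the 12337 genes that passed its filter on low counts, and a gene is said to have risen or fallen where the adjusted p was under 0.05. Of the 10 cytokine genes, 7 passed this filter. Il12b, Il23a and Csf3 did not, and Il6 and Il10 passed it through the tumor libraries, where alone they had more than a handful of counts, so their entry into the test already required a difference.

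One member, Il12b, was not detected above the floor in any library, with at most 3 counts. In the bulk RNA of the tumor libraries Osm, Lif, Csf1, Tnf, Il6 and Il10 were all higher than in blood, Osm by 94.8-fold over healthy blood and 107-fold over LLC blood. In the blood of tumor-bearing mice Csf1 and Il15 were lower than in healthy blood, and no tested member was higher. Counts of members are read here against all genes. For LLC blood against healthy blood, 0 of the 7 tested members rose and 2 fell, where 14.0% of all tested genes rose and 9.61% fell. DESeq2 called 0 higher and 3 lower, limma-voom called 0 higher and 1 lower, and at an unadjusted p under 0.05 edgeR had 0 higher and 4 lower. For LLC tumor against LLC blood 7 rose and 0 fell, where 29.6% of all tested genes rose and 31.7% fell. For LLC tumor against healthy blood 6 rose and 0 fell, where 33.5% rose and 33.0% fell. In both tumor comparisons DESeq2, limma-voom and an unadjusted p under 0.05 also gave 0 lower members. The tumor counts include Il6 and Il10, whose place among the tested genes required their tumor level. Each group of libraries enters more than one comparison, so the comparisons are not independent of each other.

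**Figure D1:**
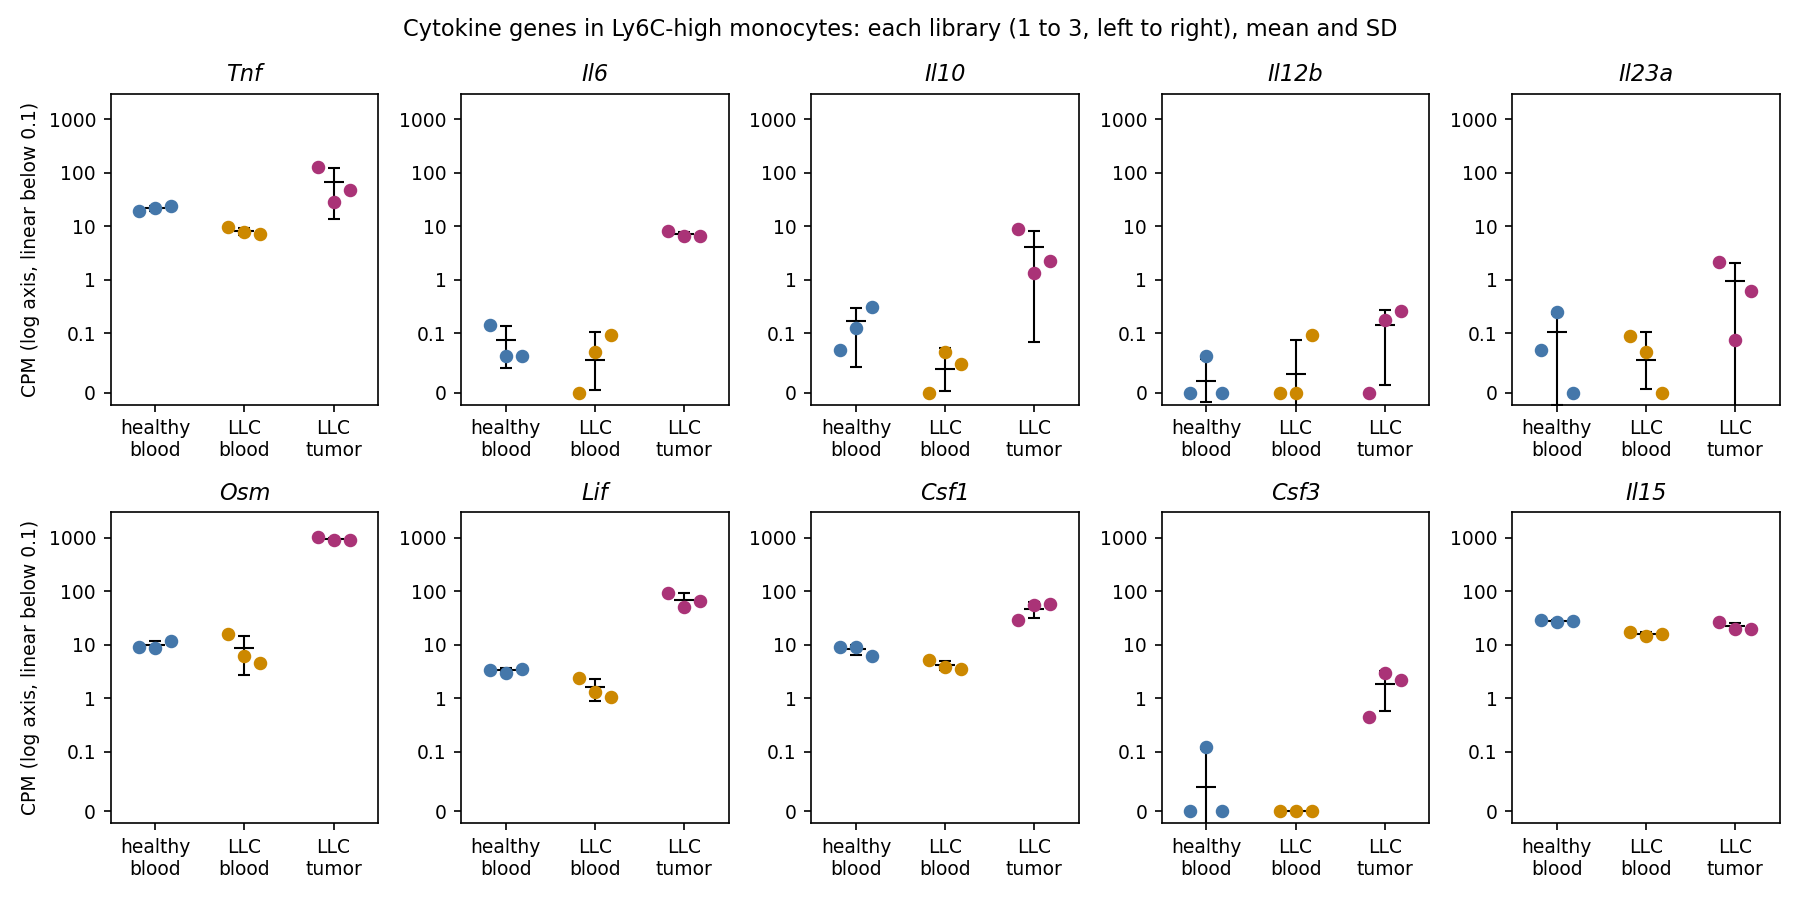
Level of each cytokine gene in CPM on a log axis that is linear below 0.1, with 1 point per library (libraries 1 to 3 from left to right within a group), the mean as a horizontal mark and the SD as a bar, which is clipped where it passes the lower edge. Osm lies at 901 to 1006 CPM in the tumor libraries and at 4.59 to 15.6 CPM in the 6 blood libraries, while Il12b stays at 0 to 0.259 CPM in all 9.

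**Figure D2:**
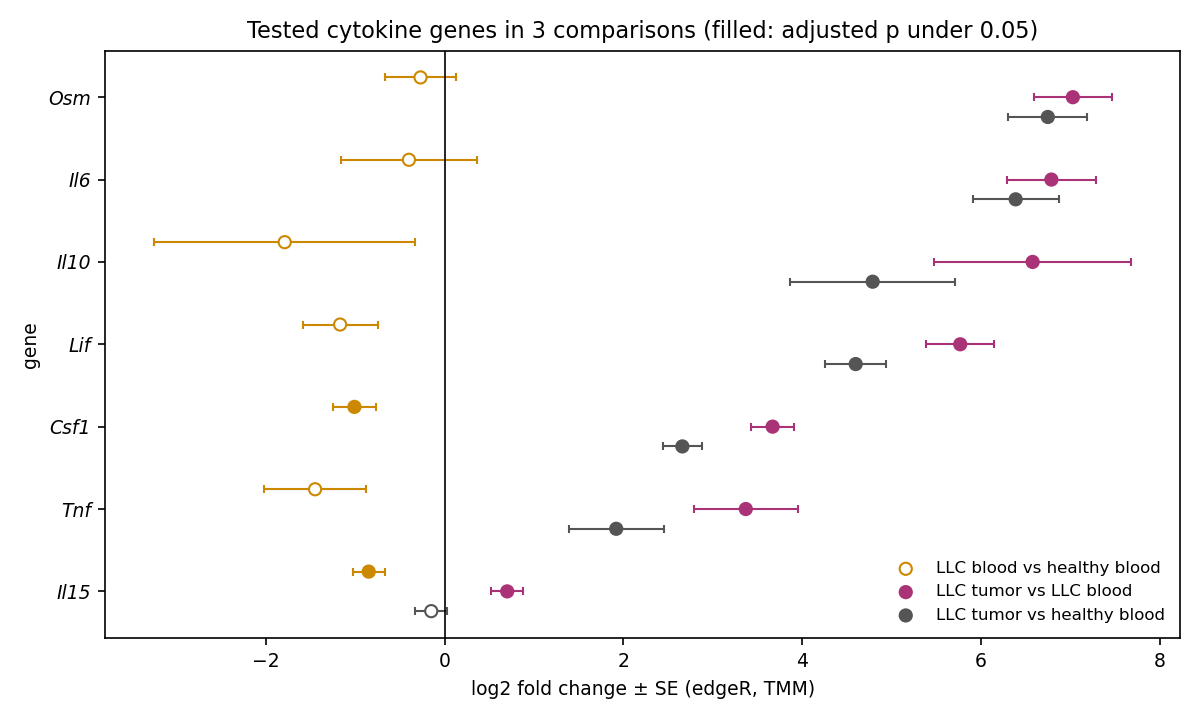
Log2 fold change with its SE for the 7 cytokine genes that passed the filter on low counts, in the 3 comparisons; filled points have an adjusted p under 0.05. In LLC blood against healthy blood the filled points are Csf1 at -1.01 and Il15 at -0.85, and in the tumor comparisons the open point is Il15 against healthy blood, at -0.15.

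The promoters of 4 of these genes, Tnf, Il6, Lif and Csf1, are shown because these genes rose in the tumor libraries and had a promoter sequence. A link between the marked letters and the transcription factor genes described further on was not tested. The sequences are the 250 bases before the annotated start, from RefSeq, build GRCm38.p6, written 5' to 3' on the strand of the gene. Tnf lies on the minus strand (chr17:35202008-35202257), Il6 on the plus strand (chr5:30012864-30013113), Lif on the plus strand (chr11:4257318-4257567) and Csf1 on the minus strand (chr3:107760470-107760719). Capitals mark matches on either strand to AP-1 (TGANTCA), C/EBP (TTNCNNAA), STAT (TTCNNNGAA) or the kappaB consensus; no match overlapped a match to another motif.
Tnf: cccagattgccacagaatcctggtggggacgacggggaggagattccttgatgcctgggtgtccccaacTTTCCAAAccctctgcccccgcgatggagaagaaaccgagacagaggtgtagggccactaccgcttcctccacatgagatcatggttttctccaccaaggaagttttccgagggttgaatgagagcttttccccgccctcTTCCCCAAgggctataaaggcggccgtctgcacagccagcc
Il6: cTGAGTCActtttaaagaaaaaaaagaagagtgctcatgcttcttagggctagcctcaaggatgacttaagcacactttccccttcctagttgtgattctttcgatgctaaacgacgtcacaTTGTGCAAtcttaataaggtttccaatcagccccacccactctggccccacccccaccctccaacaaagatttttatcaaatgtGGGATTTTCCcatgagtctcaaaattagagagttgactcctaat
Lif: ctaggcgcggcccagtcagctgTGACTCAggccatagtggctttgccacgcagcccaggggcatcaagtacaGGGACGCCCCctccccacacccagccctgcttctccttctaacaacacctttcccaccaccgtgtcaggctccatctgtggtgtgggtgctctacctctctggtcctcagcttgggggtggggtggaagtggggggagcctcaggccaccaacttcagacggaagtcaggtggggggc
Csf1: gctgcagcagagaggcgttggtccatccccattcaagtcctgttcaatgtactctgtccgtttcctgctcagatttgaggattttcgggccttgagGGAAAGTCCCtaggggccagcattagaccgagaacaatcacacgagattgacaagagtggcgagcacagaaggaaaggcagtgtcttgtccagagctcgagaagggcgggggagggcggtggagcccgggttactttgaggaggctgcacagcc
Il6 had an AP-1 match at -249 to -243, a C/EBP match at -128 to -121 and a kappaB match at -44 to -35, counted from the annotated start. Lif had an AP-1 match at -228 to -222 and a kappaB match at -178 to -169. Csf1 had a kappaB match at -154 to -145, and Tnf had C/EBP matches at -181 to -174 and -41 to -34. None of the 4 windows held the STAT letters. Among all 32851 promoters of the table, in windows of the same 250 bases, 6.75% held the AP-1 letters, 36.8% C/EBP, 7.25% kappaB and 7.02% STAT. A match is a run of letters and was not tested as a binding site, and letters not found in these windows say nothing about the factor. Promoters were found for 5 of the 10 members; the one of Il12b is not printed, and Il10, Il23a, Osm, Csf3 and Il15 had none.

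Osm encodes oncostatin M, an IL-6 family cytokine made largely by myeloid cells and neutrophils. In healthy blood Osm (ENSMUSG00000058755) was at 9.08, 8.72 and 11.8 CPM in libraries 1, 2 and 3, in LLC blood at 15.6, 6.02 and 4.59, and in LLC tumor at 1006, 903 and 901. The tumor libraries were close to each other and far above every blood library, while the blood groups overlapped, with library 1 of LLC blood above all healthy libraries and the other two below them. The group means were 9.88 ± 1.70, 8.73 ± 5.98 and 936 ± 59.9 CPM (SD, n = 3 each). The tumor level was higher than LLC blood by a log2 fold change of 7.03 (SE 0.44, edgeR adjusted p = 1.56e-06) and higher than healthy blood by 6.75 (SE 0.44, edgeR adjusted p = 1.48e-06). Between the blood groups the log2 fold change was -0.27 (SE 0.40, edgeR adjusted p = 0.662). That value rested on LLC blood library 1: without it, Osm fell in LLC blood by 0.93 on the log2 scale (edgeR adjusted p = 0.0233), and its tumor change against LLC blood was 7.67. Library 1 of LLC blood also stood apart in fibroblast markers, as given further on.

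Lif encodes leukemia inhibitory factor, a relative of OSM that acts through gp130 and the LIF receptor. Both genes are on chromosome 11, Osm at chr11:4236785-4241026 and Lif at chr11:4257568-4272514 (GRCm38.p6). Lif (ENSMUSG00000034394) was at 3.36, 3.01 and 3.56 CPM in healthy blood, at 2.39, 1.31 and 1.06 in LLC blood and at 92.4, 51.1 and 64.2 in the tumor. No library of a group overlapped another group, and the order was tumor, healthy blood, LLC blood. The means were 3.31 ± 0.276, 1.59 ± 0.705 and 69.2 ± 21.1 CPM (SD, n = 3 each), the tumor mean being 43.6-fold that of LLC blood and 20.9-fold that of healthy blood. Lif rose in the tumor by 5.77 against LLC blood (SE 0.38, edgeR adjusted p = 2.05e-06) and by 4.60 against healthy blood (SE 0.34, edgeR adjusted p = 3.57e-06). The blood difference of -1.17 (SE 0.42) did not pass the threshold (edgeR adjusted p = 0.0742). It passed in 7 of 18 alternative analyses, among them DESeq2 with an adjusted p of 0.0136.

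Il6, the namesake of the family, was near absent from blood. Il6 (ENSMUSG00000025746) had 2, 1 and 1 counts in the healthy libraries, 0, 1 and 2 in LLC blood and 88, 73 and 77 in the tumor. All 6 blood libraries were at the floor, and the 3 tumor libraries were alike, at 7.95, 6.47 and 6.65 CPM (mean 7.02 ± 0.804, SD, n = 3). From summed counts the tumor level was 107-fold that of LLC blood, with a 95% counting interval of 36.1 to 521, and 81.7-fold that of healthy blood, with an interval of 31.5 to 302. The edgeR adjusted p was 3.98e-06 against LLC blood and 3.84e-06 against healthy blood. Since Il6 entered the test through its tumor counts, these p-values are given as a description. Between the blood groups, with 4 and 3 counts in all, no difference was detectable at this depth.

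Tnf encodes the cytokine tumor necrosis factor, which is made as a membrane protein and released by the protease ADAM17. Tnf (ENSMUSG00000024401) was at 19.3, 21.8 and 23.7 CPM in healthy blood, at 9.47, 7.75 and 7.15 in LLC blood and at 130, 27.7 and 46.6 in the tumor. The groups did not overlap, in the order tumor, healthy blood, LLC blood, but tumor library 1 was 4.68 times tumor library 2. The means were 21.6 ± 2.19, 8.12 ± 1.20 and 68.0 ± 54.3 CPM (SD, n = 3 each). Tnf rose by 3.37 on the log2 scale in tumor against LLC blood (SE 0.58, edgeR adjusted p = 7.57e-04) and by 1.92 against healthy blood (SE 0.53, edgeR adjusted p = 0.0102). Without tumor library 1 these changes were 2.34 (edgeR adjusted p = 1.33e-05) and 0.83 (edgeR adjusted p = 0.00477). In LLC blood against healthy blood the log2 fold change was -1.45 (SE 0.57), with an edgeR adjusted p of 0.0946. The spread of the tumor libraries entered that test: with only the 6 blood libraries fitted, Tnf was lower in LLC blood by -1.46 with an edgeR adjusted p of 1.38e-04, and without tumor library 1 or 2 the adjusted p was 6.55e-04 or 0.0304.

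Il12b and Il23a encode the shared p40 subunit of IL-12 and IL-23 and the p19 subunit of IL-23. Il12b (ENSMUSG00000004296) had 0, 1 and 0 counts in healthy blood, 0, 0 and 2 in LLC blood and 0, 2 and 3 in the tumor. Il23a (ENSMUSG00000025383, matched through the reference table) had 1, 4 and 0 counts in healthy blood, 1, 1 and 0 in LLC blood and 24, 1 and 7 in the tumor. Its tumor counts were 2.17, 0.0886 and 0.605 CPM, so that tumor library 2 lay within the range of the blood libraries and tumor library 1 held most of the signal. The ratio of summed levels was 21.5 for tumor over LLC blood (counting interval 5.49 to 185) and 8.79 over healthy blood (3.40 to 28.9). These intervals do not include the spread between libraries. In a fit without the filter Il23a had edgeR adjusted p-values of 0.0165 and 0.0340 in these comparisons, and Il12b had 0.341 and 0.192. Il12a, which encodes the other chain of IL-12, was not tested either, at 0 to 0.614 CPM in the blood libraries and 1.17, 0.355 and 0.605 CPM in the tumor libraries.

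Il10 encodes IL-10, the main anti-inflammatory product of monocytes. Il10 (ENSMUSG00000016529) had 1, 2 and 5 counts in healthy blood, 0, 1 and 1 in LLC blood and 96, 15 and 26 in the tumor. In tumor this was 8.67, 1.33 and 2.25 CPM, again highest in library 1, at 6.52 times library 2. Every tumor library exceeded every blood library. The summed tumor level was 92.1-fold that of LLC blood (counting interval 25.0 to 768) and 23.5-fold that of healthy blood (11.6 to 55.6), with edgeR adjusted p-values of 6.46e-04 and 0.00132. The fitted log2 values of 6.58 and 4.79 dropped to 5.23 and 3.38 without tumor library 1, with edgeR adjusted p-values of 1.63e-04 and 6.30e-04. Il10 also entered the test through its tumor counts, so its tumor p-values are given as a description. The blood groups, with 8 and 2 counts in all, had an edgeR adjusted p of 0.412.

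Csf1 encodes CSF-1, the growth factor of monocytes and macrophages whose receptor is the monocyte marker Csf1r. Csf1 (ENSMUSG00000014599) was at 9.08, 9.15 and 6.19 CPM in healthy blood, at 5.16, 3.80 and 3.57 in LLC blood and at 29.0, 54.0 and 56.4 in the tumor. The groups did not overlap, and here tumor library 1 was the lowest of its group. The means were 8.14 ± 1.69, 4.18 ± 0.859 and 46.5 ± 15.2 CPM (SD, n = 3 each). Csf1 rose in tumor, its mean CPM being 11.1-fold that of LLC blood and 5.71-fold that of healthy blood. The fitted log2 fold changes were 3.67 (SE 0.24, edgeR adjusted p = 1.99e-06) and 2.66 (SE 0.22, edgeR adjusted p = 7.48e-06). It fell in LLC blood by 1.01 on the log2 scale (SE 0.24, edgeR adjusted p = 0.0159), the healthy mean being 1.95 times the LLC mean. That call was lost in 5 of 18 alternatives: limma-voom gave an adjusted p of 0.0564, and edgeR gave 0.0545, 0.0541, 0.0716 and 0.0779 without healthy library 1, healthy library 2, LLC blood library 2 and LLC blood library 3.

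Csf3 encodes G-CSF, the driver of neutrophil production. Csf3 (ENSMUSG00000038067) had 0, 2 and 0 counts in healthy blood, 0 in all 3 LLC blood libraries and 5, 34 and 25 in the tumor. The tumor libraries were at 0.451, 3.01 and 2.16 CPM, and as with Csf1 library 1 was the lowest. Against the floor of 3 counts per library the tumor mean was at least 8.80-fold higher than LLC blood, and it was 43.9-fold that of healthy blood (counting interval 11.7 to 371). Csf3 did not pass the filter; without the filter its edgeR adjusted p was 7.19e-04 against LLC blood and 0.00153 against healthy blood.

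Il15 encodes IL-15, which myeloid cells present to NK and T cells on the IL-15 receptor alpha chain. Il15 (ENSMUSG00000031712) was at 29.1, 26.8 and 27.7 CPM in healthy blood, at 17.0, 14.4 and 15.9 in LLC blood and at 26.0, 19.9 and 20.0 in the tumor. Unlike the other tested members it was highest in healthy blood, and again the groups did not overlap. The means were 27.9 ± 1.16, 15.8 ± 1.32 and 21.9 ± 3.52 CPM (SD, n = 3 each). Il15 fell in LLC blood by 0.85 on the log2 scale (SE 0.18, edgeR adjusted p = 0.00868), a call that held in all 18 alternatives at an adjusted p under 0.05, the highest being 0.0423. Il15 rose in tumor over LLC blood, 1.39-fold in mean CPM and by a fitted log2 of 0.70 (SE 0.18, edgeR adjusted p = 0.00756). Tumor against healthy blood gave -0.15 (SE 0.18, edgeR adjusted p = 0.470). With scaling by library totals alone Il15 was lower in tumor than in healthy blood by -0.34 (edgeR adjusted p = 0.0365), and without tumor library 1 by -0.44 (edgeR adjusted p = 0.00361).

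The tumor libraries were not interchangeable for these genes. Library 1 had the highest value of the 3 for 7 of the 10 members, namely Tnf, Il6, Il10, Il23a, Osm, Lif and Il15, with a ratio of highest to lowest library from 1.12 for Osm to 24.4 for Il23a. Csf1 and Csf3 were lowest there. Summed CPM of 7 fibroblast markers were 938, 3470 and 3929 in tumor libraries 1, 2 and 3 and 6.02 to 16.9 in healthy blood. Of these markers 7 were above 3 counts in the tumor group, but so were 7 in LLC blood and 6 in healthy blood. Col3a1 led the tumor sums, at 713, 2801 and 3099 CPM, with Col1a1 at 13.5, 110 and 129 CPM. Pdgfrb, at 2.08, 3.72 and 7.69 CPM in tumor, overlapped its 1.36 to 5.36 CPM in blood. LLC blood held 414, 3.67 and 4.59 CPM of the same markers, with Col1a1 at 212 CPM in library 1. That blood library was also the highest of its group for 6 members: Tnf, Il23a, Osm, Lif, Csf1 and Il15. The part of these fibroblast transcripts in the levels of the cytokine genes was not tested.

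**Figure D3:**
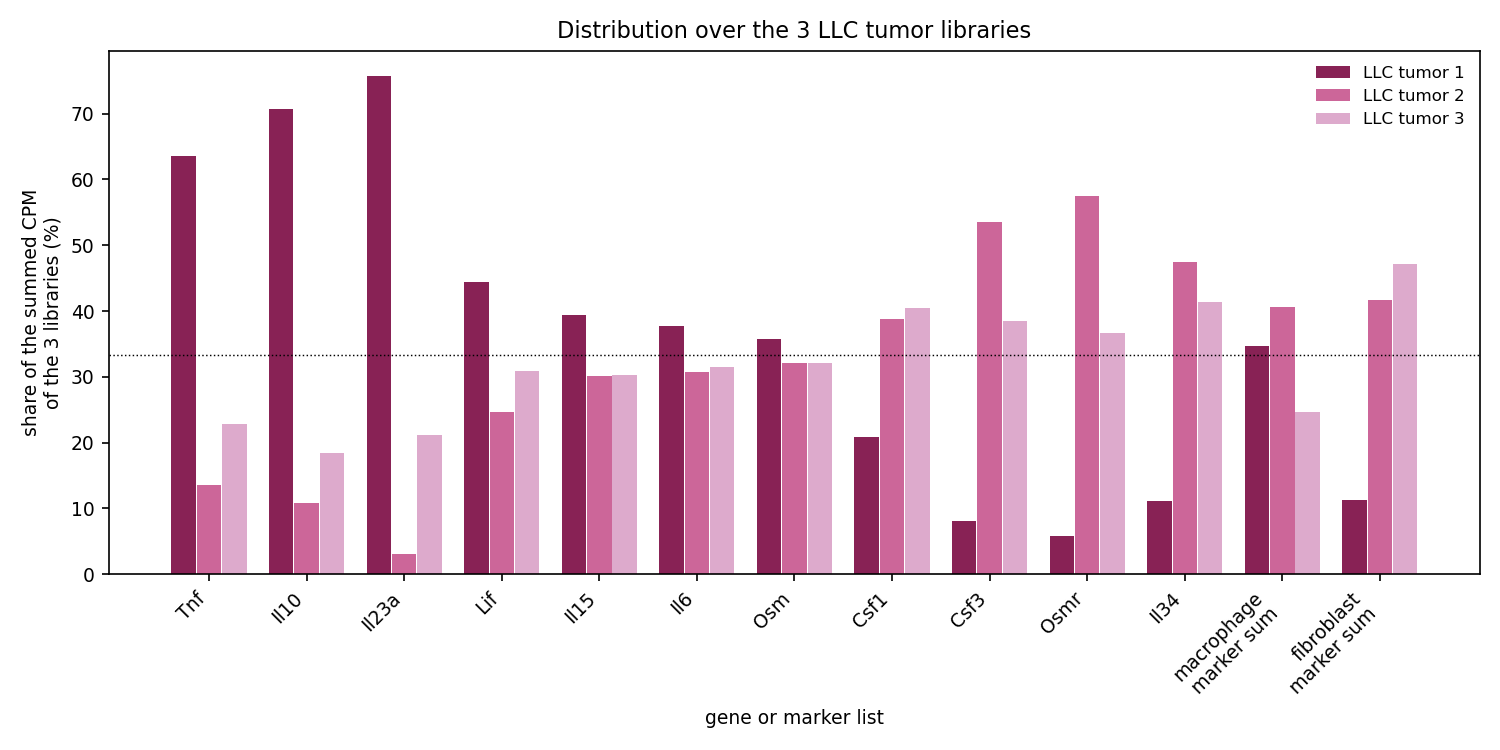
Share of the summed CPM of the 3 tumor libraries that each library held, in percent, for 9 cytokine genes, the receptor gene Osmr, the cytokine gene Il34, and the summed macrophage and fibroblast markers; the dotted line is an equal share. Tnf, Il10 and Il23a have their highest bar in library 1, while Csf1, Csf3, Osmr, Il34 and the fibroblast markers (938, 3470 and 3929 CPM) have their lowest there.

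Markers of other cells moved with the groups as well, and in bulk samples fewer cells of a type and less RNA per cell cannot be told apart. All 8 monocyte markers were above 3 counts in every group, with sums of 32524 to 36424 CPM in healthy blood, 23280 to 26597 in LLC blood and 14742 to 19213 in tumor. Lyz2 made up most of these sums, at 25713 to 29077 CPM in healthy blood and 6898 to 9308 in tumor, whereas Cd14 was at 40.8 to 52.2 and 1378 to 2010 CPM, Itgam at 893 to 949 and 3193 to 3720, and Fcgr1 at 194 to 234 and 353 to 634. The 7 macrophage markers summed to 334 to 355, 325 to 360 and 907 to 1500 CPM; within them C1qa was at 192, 245 and 136 CPM in tumor and at most 10.7 CPM in blood, while Adgre1 was lower in tumor, at 164 to 212 CPM against 290 to 340. The 7 NK cell markers, of interest beside Il15 and its receptor chain Il2rb, summed to 154 to 332 CPM in healthy blood, 22.7 to 39.1 in LLC blood and 1.56 to 3.07 in tumor. T cell markers summed to 38.5 to 188, 3.94 to 6.41 and 6.91 to 11.8 CPM, and dendritic cell markers to 80.2 to 85.8, 24.4 to 39.4 and 6.23 to 9.40 CPM. Cd28 made up most of the T cell sum in tumor, at 10.6, 6.74 and 5.44 CPM, and the other 7 T cell markers were at 0 to 0.709 CPM there. The neutrophil list without Mmp8 and Csf3r summed to 0.572 to 26.7, 2.30 to 63.7 and 4.24 to 19.1 CPM. Of the B cell markers, Cd79a was at 48.5 CPM in healthy library 2, at 0.572 and 2.02 CPM in the other healthy libraries, at 0.0956, 0.553 and 0.193 CPM in LLC blood and at 0 in tumor. Ms4a1 was at 25.4 CPM in healthy library 2 and likewise at 0 in tumor. In tumor, epithelial markers of LLC cells summed to 63.4 to 102 CPM, mast cell and basophil markers to 3.79 to 14.1 CPM and endothelial markers to 12.4 to 18.3 CPM; in blood these 3 sums were at most 9.79, 0.724 and 2.15 CPM. Cdh1 made up most of the epithelial sum in tumor, at 52.8, 58.3 and 39.2 CPM. Krt8 was at 6.32, 8.16 and 13.7 CPM and Krt18 at 3.97, 34.8 and 22.0 CPM there, against at most 0.287 and 0.429 CPM in blood. Epcam and Krt19 were at 0 in tumor libraries 1 and 2, and Krt7 was at 0.271 to 0.864 CPM, under its 6.51 to 7.79 CPM in healthy blood. In tumor libraries 1, 2 and 3 the epithelial sums were 63.4, 102 and 76.3 CPM. The mast cell and basophil sums were 3.79, 14.1 and 11.8 CPM. Like the fibroblast sum, these were lowest in library 1, as were the neutrophil, B cell and dendritic cell sums. The monocyte, macrophage, T cell, NK cell and endothelial sums were not. The part of other cells in the cytokine results was not tested.

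Of 16 receptor genes for the 10 cytokines, 15 were tested, and more fell than rose in the tumor. The counts of this and the following lists are to be read against the shares of all tested genes. These were 29.6% risen and 31.7% fallen in tumor against LLC blood, and 33.5% and 33.0% in tumor against healthy blood. In LLC blood against healthy blood they were 14.0% and 9.61%. In tumor against LLC blood 2 rose and 8 fell, with a median log2 fold change of -0.61 against -0.03 over all tested genes. The 2 that rose were Il10rb and Osmr, and Osmr passed the filter through the tumor libraries, so its entry into the test required that difference. Against healthy blood 2 rose and 10 fell (median -0.85 against -0.00), and between the blood groups 3 rose and 3 fell (median -0.15 against -0.01). Il12rb1, among those that fell between the blood groups, passed the filter largely through the healthy libraries. Il23r, the IL-23 receptor chain, did not exceed 3 counts in any library.

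Il6st, Il6ra and Lifr rose in LLC blood against healthy blood and were lower in tumor than in LLC blood. Il6st, which encodes gp130, was at 119, 122 and 115 CPM in healthy blood, 225, 280 and 251 in LLC blood and 82.3, 133 and 123 in tumor. It rose in LLC blood by 1.06 (SE 0.11, edgeR adjusted p = 2.92e-04) and was lower in tumor than in LLC blood by -0.98 (SE 0.11, edgeR adjusted p = 4.92e-05). Its LLC blood libraries lay above all others, while tumor and healthy blood overlapped. Il6ra, the IL-6 binding chain, went from 315 ± 44.2 in healthy blood to 515 ± 42.6 in LLC blood and 155 ± 6.46 CPM in tumor (SD, n = 3 each), with edgeR adjusted p-values of 0.00443 for the rise in LLC blood and 7.68e-06 for the fall in tumor. Lifr was at 47.5 ± 4.44, 68.3 ± 2.10 and 14.1 ± 2.35 CPM, higher in LLC blood by 0.50 (edgeR adjusted p = 0.0366) and lower in tumor than in LLC blood by -2.07 (edgeR adjusted p = 4.66e-06). So Lif was at its highest where its receptor gene was at its lowest. Osmr, the OSM receptor, was at or near 0 in blood, with 1 count in each blood group in all, and at 2.08, 20.4 and 13.0 CPM in the tumor libraries. The ratio of summed levels was 542 over LLC blood, with a counting interval of 96.7 to 21454. Osmr was lowest in tumor library 1, like the fibroblast and several other marker sums and unlike Osm. What share of Osmr came from monocytes was not tested.

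Of the receptor genes of the other members, Csf3r, Tnfrsf1b, Il15ra, Il2rb and Il12rb2 fell in tumor against LLC blood and Il10rb rose. Csf3r, the G-CSF receptor, dropped from 527 ± 25.3 CPM in healthy and 492 ± 4.09 in LLC blood to 145 ± 10.8 in tumor (log2 -1.56 against LLC blood, edgeR adjusted p = 8.60e-07). The TNF receptor gene Tnfrsf1b fell from 1378 ± 88.3 CPM in LLC blood to 647 ± 106 in tumor (edgeR adjusted p = 0.00241), whereas Tnfrsf1a was at 363 ± 11.5 and 273 ± 11.5 CPM (edgeR adjusted p = 0.139). Csf1r, which binds CSF-1 and IL-34, was at 1998 ± 120, 1940 ± 180 and 1336 ± 232 CPM, with edgeR adjusted p-values of 0.832 between the blood groups, 0.189 for tumor against LLC blood and 0.110 for tumor against healthy blood. For IL-10, the signalling chain gene Il10rb rose from 89.6 ± 2.61 to 156 ± 12.2 CPM between LLC blood and tumor (log2 1.02, edgeR adjusted p = 9.81e-05), and Il10ra was at 479 ± 69.5 and 338 ± 51.0 CPM (edgeR adjusted p = 0.227). For IL-15, Il15ra was lower in tumor than in LLC blood by -0.82 (edgeR adjusted p = 0.00151), from 19.9 ± 0.887 to 9.73 ± 1.15 CPM. Il2rb, a chain typical of NK and T cells, fell from 27.5 ± 7.26 CPM in healthy blood to 5.34 ± 1.46 in LLC blood and 0.940 ± 0.621 in tumor, alongside the NK cell marker sums given above. Il2rg was at 192 ± 13.0, 130 ± 11.6 and 115 ± 26.6 CPM and was lower in tumor than in healthy blood (edgeR adjusted p = 0.0440). The IL-12 receptor genes fell in LLC blood, Il12rb1 from 2.57 ± 0.872 to 0.319 ± 0.269 CPM (edgeR adjusted p = 0.00995) and Il12rb2 from 11.1 ± 1.33 to 7.00 ± 0.594 CPM (edgeR adjusted p = 0.0364). Il12rb1 passed the filter largely through the healthy libraries, at 1.57, 2.95 and 3.19 CPM there and 0.191, 0.138 and 0.628 CPM in LLC blood. Its place among those that fell thus required its healthy level, and its p-value is given as a description. NK and T cell marker sums were lower in the same comparison. In healthy libraries 1, 2 and 3 Il12rb1 had the order of those sums, whereas Il12rb2, at 11.9, 9.58 and 11.9 CPM, did not. The part of NK and T cells in either fall was not tested.

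**Figure D4:**
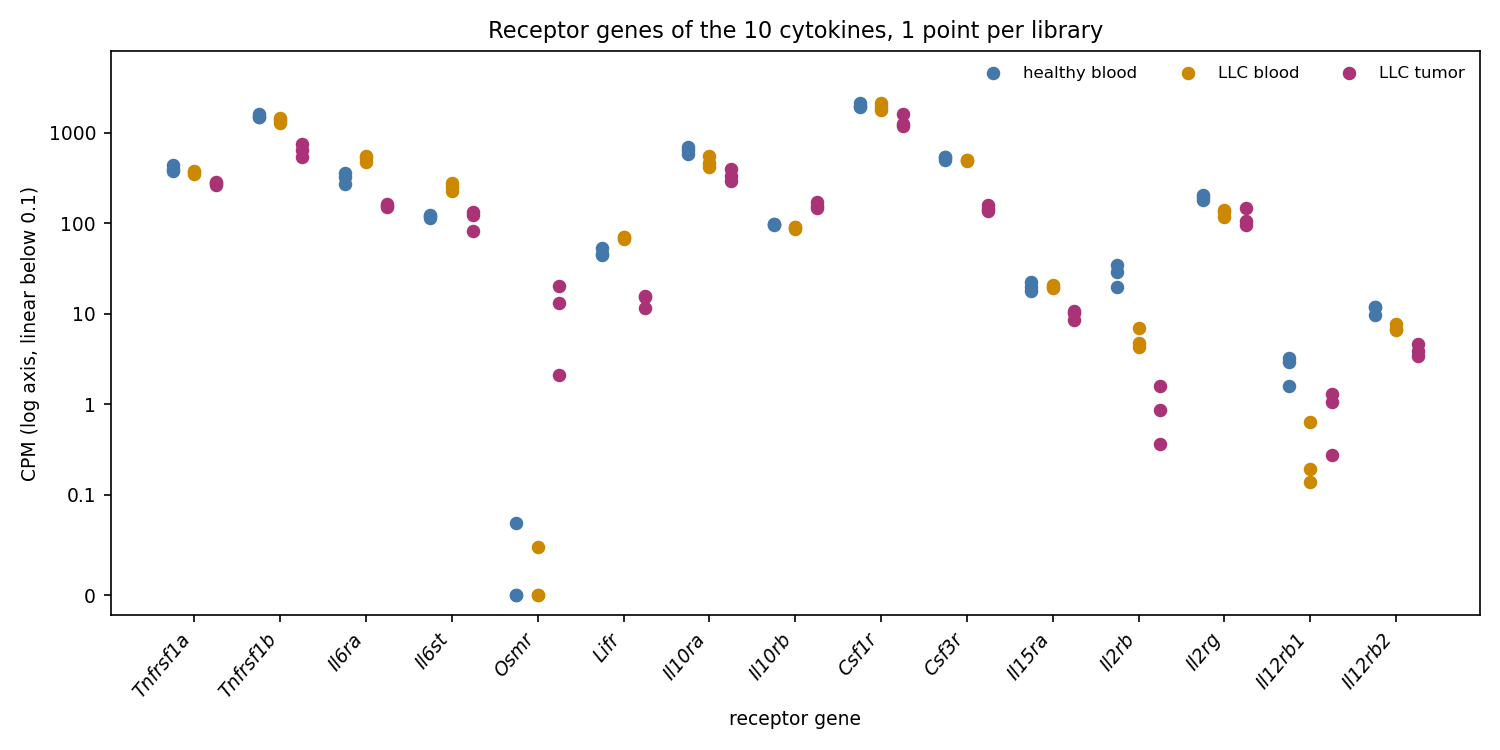
Level in CPM (log axis, linear below 0.1) of the 15 tested receptor genes, 1 point per library, coloured by group. Il6ra, Il6st and Lifr have their highest points in LLC blood, Csf3r and Lifr their lowest in tumor, and Osmr lies at 2.08 to 20.4 CPM in tumor and near 0 in blood.

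Most of a list of 26 related cytokine genes (partner subunits and members of the same families) was little detected in these cells: 12 did not exceed 3 counts in any library, and 7 were tested. Of these, 0 rose and 2 fell in LLC blood against healthy blood (median -1.14 against -0.01 over all genes), 2 rose and 3 fell in tumor against LLC blood (median -0.46 against -0.03), and 2 rose and 3 fell in tumor against healthy blood (median -1.16 against -0.00). The 2 of 7 that rose in tumor are near the 29.6% and 33.5% of all tested genes that rose. Tgfb1, also tested, was well detected, at 539 ± 45.1 CPM in healthy blood, 437 ± 3.42 in LLC blood and 447 ± 40.7 in tumor. It was not called in any comparison. Clcf1, another ligand of the gp130 family, was at 10.0 ± 1.97 CPM in healthy blood, 2.26 ± 0.323 in LLC blood and 19.4 ± 1.41 in tumor, with log2 fold changes of -2.18 in LLC blood (edgeR adjusted p = 1.43e-04) and 3.30 in tumor against LLC blood (edgeR adjusted p = 1.07e-06). Its order of groups was that of Lif, Tnf and Csf1. Ebi3 and Il27, which encode the chains of IL-27, went the other way in tumor: Ebi3 was at 46.8 ± 7.03, 21.6 ± 3.31 and 11.8 ± 2.65 CPM, and Il27 at 10.5 ± 1.05, 7.05 ± 1.42 and 2.79 ± 0.888 CPM, both lower in tumor than in healthy blood (edgeR adjusted p = 1.19e-04 and 4.19e-04). Ltb was lower in tumor than in healthy blood by -3.35 (edgeR adjusted p = 1.58e-04) and was highest, at 23.1 CPM, in healthy library 2, the one with the highest Cd79a and Ms4a1. Il34, the second ligand of the CSF-1 receptor, had 0 counts in LLC blood and 2.17, 9.31 and 8.12 CPM in the tumor libraries, at least 30.7-fold higher against the floor of 3 counts per library. Il34 passed the filter through the tumor libraries, so its place among the 2 that rose required that level. It was lowest in the same tumor library as Csf1 and Csf3.

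A list of 7 genes concerns the release of TNF and CSF-1 from the cell surface, and it includes Timp3, which encodes an inhibitor of ADAM17. Of the 7, 5 rose and 1 fell in tumor against LLC blood (median 0.69 against -0.03), 6 rose and 1 fell against healthy blood (median 0.92 against -0.00), and 1 rose and 1 fell in LLC blood (median 0.21 against -0.01). Timp3 is counted among those higher than in healthy blood (edgeR adjusted p = 0.0231), with 3 counts there in all and 1.17, 1.60 and 1.99 CPM in the tumor libraries. LLC blood libraries 1, 2 and 3 held 1.82, 0 and 0 CPM. Timp3 thus passed the filter largely through the tumor libraries, and its place among those that rose required that level. Furin rose by 1.01 and Rhbdf2, a partner of ADAM17, by 0.69 in tumor against LLC blood (edgeR adjusted p = 1.27e-04 and 3.44e-05). Adam17 itself rose by 0.41 there (edgeR adjusted p = 0.00898). The gene that fell was Frmd8 in each comparison. It changed by -0.47 in tumor against LLC blood (edgeR adjusted p = 2.95e-04) and -0.73 against healthy blood (edgeR adjusted p = 1.70e-05). In LLC blood against healthy blood it changed by -0.25 (edgeR adjusted p = 0.0262). Rhbdf1 was at 0.751 ± 0.350 CPM in LLC blood and at 5.15, 22.4 and 23.1 CPM in the tumor libraries, again lowest in library 1.

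Below the receptors, 15 JAK-STAT genes were all tested. In LLC blood 6 rose and 3 fell (median 0.21 against -0.01), in tumor against LLC blood 6 rose and 7 fell (median -0.22 against -0.03), and in tumor against healthy blood 7 rose and 5 fell (median 0.41 against -0.00). The 5 of 15 are near the 33.0% of all tested genes that fell against healthy blood. Socs2, counted among those that rose in tumor, was at 0.0692 to 0.552 CPM in blood. It was at 4.15 to 6.23 CPM in the tumor libraries, through which it passed the filter. Feedback genes that STAT factors induce were among those that rose. Socs3, an inhibitor of gp130 signalling, was at 98.6 ± 12.9 CPM in healthy blood, 241 ± 46.6 in LLC blood and 589 ± 4.82 in tumor, and rose at both steps (log2 1.26 and 1.50, edgeR adjusted p = 7.79e-04 and 3.35e-05). Cish went from 2.54 ± 0.991 to 1.19 ± 0.0707 and 42.4 ± 2.03 CPM, lower in LLC blood and higher in tumor by 5.35 against LLC blood (edgeR adjusted p = 3.12e-07). Socs1 was at 5.49 ± 1.10, 2.06 ± 0.204 and 8.59 ± 2.32 CPM, lower in LLC blood (edgeR adjusted p = 0.00875) and higher in tumor (edgeR adjusted p = 1.54e-04). Stat3 itself was higher in LLC blood by 0.34 (edgeR adjusted p = 0.0231) and lower in tumor than in LLC blood by -0.41 (edgeR adjusted p = 0.00301).

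Of 20 genes of transcription factors known to act on cytokine promoters, 14 rose and 5 fell in tumor against LLC blood (median 2.29 against -0.03), 13 rose and 6 fell in tumor against healthy blood (median 1.86 against -0.00), and 1 rose and 6 fell in LLC blood (median -0.52 against -0.01). Ets2 was at 15.8 ± 0.687 CPM in healthy blood, 6.24 ± 1.30 in LLC blood and 378 ± 99.9 in tumor, and Egr1 at 33.1 ± 6.27, 6.38 ± 4.57 and 144 ± 63.7 CPM. Both fell in LLC blood (edgeR adjusted p = 0.00937 and 0.00401) and rose in tumor against LLC blood (edgeR adjusted p = 4.88e-07 and 2.02e-05). Fosl1, an AP-1 subunit, had 1 count in healthy blood and 2 in LLC blood in all, against 20.8, 30.7 and 31.9 CPM in the tumor libraries, through which it passed the filter. Bhlhe40, a repressor of Il10, and Maf, an activator of it, both rose in tumor, Bhlhe40 from 41.0 ± 6.64 in LLC blood to 756 ± 160 CPM and Maf from 34.2 ± 3.10 to 173 ± 18.2 CPM (edgeR adjusted p = 7.23e-07 and 1.54e-06); Maf is named here after its values were seen in that comparison. Among those that fell, also named after their values were seen, Irf4 went from 105 ± 8.14 CPM in healthy blood and 71.7 ± 3.49 in LLC blood to 6.01 ± 2.07 in tumor, lower than LLC blood by -3.36 (edgeR adjusted p = 3.54e-06). Batf3 went from 20.6 ± 1.69 and 10.4 ± 2.39 to 1.56 ± 0.197 CPM, lower than LLC blood by -2.52 (edgeR adjusted p = 8.61e-06). LLC blood library 1 stood apart in this list: Jun was at 378 CPM there against 15.1 and 10.0 in libraries 2 and 3, Fos at 944 against 377 and 330, and Egr1 at 11.6 against 2.97 and 4.59.

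Of 13 NF-kB family and feedback genes, 7 rose and 2 fell in tumor against both LLC blood (median 0.28 against -0.03) and healthy blood (median 0.35 against -0.00), and 1 rose and 3 fell in LLC blood (median -0.27 against -0.01). The feedback inhibitors led: Tnfaip3 was at 793, 242 and 311 CPM and Nfkbia at 1445, 657 and 803 CPM in the tumor libraries, against 31.4 ± 7.96 and 108 ± 13.7 CPM in LLC blood (edgeR adjusted p = 9.59e-05 and 3.28e-05). Both were highest in tumor library 1 and lowest in library 2, the order that Tnf, Il10, Il23a and Lif had. Rel was the one gene of the list that rose in LLC blood, from 17.3 ± 1.73 to 57.5 ± 3.92 CPM (edgeR adjusted p = 0.00155).

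Among 10 regulators of cytokine mRNA decay and stability, 3 rose and 0 fell in tumor against LLC blood (median 0.10 against -0.03), 3 rose and 2 fell against healthy blood (median 0.06 against -0.00), and 0 rose and 3 fell in LLC blood (median -0.10 against -0.01). The 3 of 10 are near the 29.6% of all tested genes that rose against LLC blood. Zfp36, which encodes tristetraprolin, was at 701 ± 94.7, 376 ± 203 and 1422 ± 50.3 CPM, Zfp36l1 at 34.8 ± 9.36, 59.1 ± 24.0 and 540 ± 54.0 CPM, and Zc3h12a, which encodes the ribonuclease Regnase-1, at 51.2 ± 3.72, 45.1 ± 0.442 and 108 ± 19.4 CPM. The edgeR adjusted p-values for tumor against LLC blood were 3.67e-04, 1.96e-05 and 9.19e-05. LLC blood library 1 was again apart for Zfp36, at 610 CPM against 281 and 238.

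The 2 genes most like each tested member over the 9 libraries, by Pearson's r of log2(CPM + 1) among 9713 candidates, are given as a description; the libraries share their groups, so any gene that separates tumor from blood scores highly. They were Ptgs2 and Vegfa for Osm (both 0.998), Trib1 (0.999) and Gadd45g (0.997) for Lif, and Runx3 and Bnip3 for Il6 (both 0.999). For Tnf they were Selk (0.987) and Acvrl1 (0.985), for Il10 Lgals3 (0.992) and Sdcbp (0.983), and for Csf1 1110038B12Rik (0.994) and Parp6 (0.992). Il15, whose levels did not separate tumor from blood, was most like Ing2 (0.987) and Gng5 (0.968).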

How the data were processed

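RNA from sorted Ly6C-high monocytes was made into TruSeq libraries and sequenced on a HiScanSQ instrument, per the labels' protocols. The submitters' processing notes name STAR 2.6.1d, Salmon 1.9.0, edgeR and the build mm10, among tools for all assays of the series, with no role for each. The authors deposited a table of estimated counts with 24411 entries, of which 8.56% to 9.73% per library were not whole; values of the 10 cytokine genes were all whole. The deposited CPM table holds 10693 of these genes, 9 of the 10 among them, and 100% of its CPM values were whole reads (tolerance 0.01) equal to the rounded counts. Blood libraries carry BM in their column heads; since titles give blood as the source, this was taken for blood monocyte, which the tables cannot tell from bone marrow. The series has 31 samples, and 22 from other assays were not analysed here.

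Counts were rounded and fitted with edgeR 4.0.16 (R 4.3.3; quasi-likelihood test, TMM, filterByExpr, group as the single term) over all 9 libraries, in 3 comparisons; 12337 of 18544 genes with a count passed the filter. CPM were taken over all entries. Ratios of genes at the floor of 3 counts carry 95% counting intervals. A fit without the filter served the members that failed it. DESeq2 1.42.0, limma-voom (limma 3.58.1), other scalings, a replicate block, the 6 libraries of a comparison alone and leaving out each library were alternatives, and the count test on reads recovered from the CPM table was added after seeing the data; it called 2584 genes in LLC blood against healthy blood, 6792 in tumor against LLC blood and 7236 in tumor against healthy blood. The main edgeR fit was run on simulated counts with changes planted in LLC blood alone. Tumor-sized changes, groups at the floor, counting intervals and the alternatives were not simulated. The members, the other gene lists and the marker lists were chosen with earlier results of these data known. Named genes were all members, all tested receptors and, from each other list, up to 4 called genes with the largest change and, across both groups, a mean of 5 CPM or more; Il12a, Il34, Stat3, Irf4 and other values outside this rule were chosen after they were seen. Promoters come from RefSeq (GRCm38.p6), whose table also gave gene positions.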

Additional observations from a re-analysis of the deposited data

How the results depend on the processing

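The 21 log2 fold changes of the tested members were recomputed in up to 18 planned or added analyses, giving 376 values: 356 kept their direction and side of the threshold, 5 lost the call, 13 gained one and 2 changed sign. All 126 values for LLC tumor against LLC blood kept direction and call. They include those of Il6 and Il10, which entered the test through their tumor counts. The members lower in LLC blood, 2 in the report, were 1 at an adjusted p under 0.01, 1 with limma-voom, 4 with only the 6 libraries compared and 1 to 4 when single libraries were left out; the numbers of all genes called in that comparison, 2917 in the report, were 1386 at an adjusted p under 0.01, 4889 with only the 6 libraries, and 1494 to 5064 with single libraries left out. The lowest of the last came without LLC blood library 2 and the highest without LLC tumor library 1; the cause was not tested. The members lower in tumor than in healthy blood, 0 in the report, were 1 (Il15) with library totals and 0 to 1 with libraries left out. In LLC blood against healthy blood, Il6 ranged from -0.98 to 0.04 with single libraries left out, changing sign without healthy library 1, and Osm from -0.93 to 0.07, changing sign without LLC blood library 3; of these, Osm without LLC blood library 1 was called (edgeR adjusted p = 0.0233). The labels do not say whether equal replicate numbers pair the samples, and correlations of the libraries' deviations from their group means cannot decide it. They lay between -0.14 and 0.30 for equal numbers and between -0.31 and 0.17 for unequal ones. Only LLC blood and LLC tumor libraries could share mice, and with equal numbers these gave -0.08, 0.12 and -0.14. With the replicate number as a block Lif was called lower in LLC blood (-1.18, edgeR adjusted p = 0.0206), and no other member's call changed. Scaling by library totals moved the median of all genes to -0.23 in tumor against LLC blood and -0.17 against healthy blood, and the share of calls that were higher from 48.3% to 36.3% and from 50.4% to 40.6%; upper-quartile scaling moved that share in LLC blood from 59.4% to 46.3%. Depth limits Il12b, Il23a, Csf3 and, in blood, Il6 and Il10.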
